A study of Mus musculus with 22 samples.

Results

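Tumours of mice given avelumab together with 10 µg of NHS-muIL12 were compared with tumours of mice given 10 µg of NHS-muIL12 alone. The comparison covers 7 of the 22 libraries of the series, chosen by their labels: 4 mice with both agents, called the combination here, and 3 mice with NHS-muIL12 alone. All mice were BALB/c and carried EMT-6 cells, a mouse mammary carcinoma line, in the mammary fat pad. Treatment began at day 0, when tumours had reached about 100 mm3. The NHS-muIL12 dose was subcutaneous and given once, at day 0, while avelumab (200 µg) went into a vein on days 0, 3 and 6. Tumours were taken on day 6. Mice with NHS-muIL12 alone received 0 µg of avelumab, and the labels name no control antibody for them. The other groups used below received isotype control, avelumab alone, 2 µg of NHS-muIL12, or that dose with avelumab. Each library is 1 mouse. The series text speaks of 4 mice in each group, and further mice are not analysed here. The age of the mice is not given in the sources used here.

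NHS-muIL12 is an antibody that binds DNA and histones exposed in necrotic tissue, fused to murine interleukin-12. Interleukin-12 acts on T cells and natural killer (NK) cells through STAT4 and makes them release interferon-gamma. Interferon-gamma acts on tumour, stromal and myeloid cells and induces antigen presentation genes, the chemokines Cxcl9 and Cxcl10, and also Cd274, the gene of PD-L1. PD-L1 binds PD-1 on T cells and restrains them, and avelumab is an antibody against PD-L1. The comparison asks what blocking PD-L1 adds to tumour gene expression when the higher interleukin-12 dose is already present.

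NanoString probes read the total RNA of whole tumours. The values are signal on a linear scale, after the authors' background subtraction and scaling. Total signal in the 7 libraries ran from 360035 to 511105. The highest belonged to combination replicate 3, and the other 6 lay between 360035 and 402254. The mean log2 signal of 20 housekeeping genes lay between 8.83 and 8.88. The lower quartile of signal was 33.3 in NHS-muIL12 alone replicate 3 and between 8.34 and 20.9 in the other 6 libraries, so dim genes read higher in that mouse. All differences below are between mean log2(signal + 1) values, combination minus NHS-muIL12 alone, ± SE from limma fitted to all 22 libraries. In whole tumours, fewer cells of a type and less RNA per cell cannot be told apart.

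No single gene differed between the groups past the test. Of 750 genes, 0 (0%) had an adjusted p under 0.05 in limma, and no adjusted p was below 0.932. An unadjusted limma p under 0.05 was reached by 35 genes (4.67%), 18 higher (2.4%) and 17 lower (2.27%) in the combination, and 11 of these 35 had a mean signal under 20. The groups did not overlap for 43 genes (5.73%), with all combination mice above for 16 (2.13%) and below for 27 (3.6%). With 3 mice against 4, an exact permutation test of 1 gene cannot give a p below 0.0571. Randomly assigned labels would leave a gene without overlap at that rate, which is close to the share seen here.

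The median difference over all 750 genes was -0.05. Among the 450 brighter genes, those whose signal averaged 50 or more over the 22 libraries, it was 0.02, with 239 genes higher and 211 lower in the combination. Among the 300 dimmer genes it was -0.45, and without NHS-muIL12 alone replicate 3, the mouse whose dim genes read higher, it was 0.00. For the brighter genes the 95% interval of the difference reached a median of 0.55 log2 units to each side, a factor of 1.47, and for 334 of the 450 (74.2%) the whole interval lay within 1 log2 unit of 0. For the dimmer genes the interval reached a median of 2.11 log2 units, a factor of 4.32, so that only large differences could be seen at that signal.

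**Figure D1:**
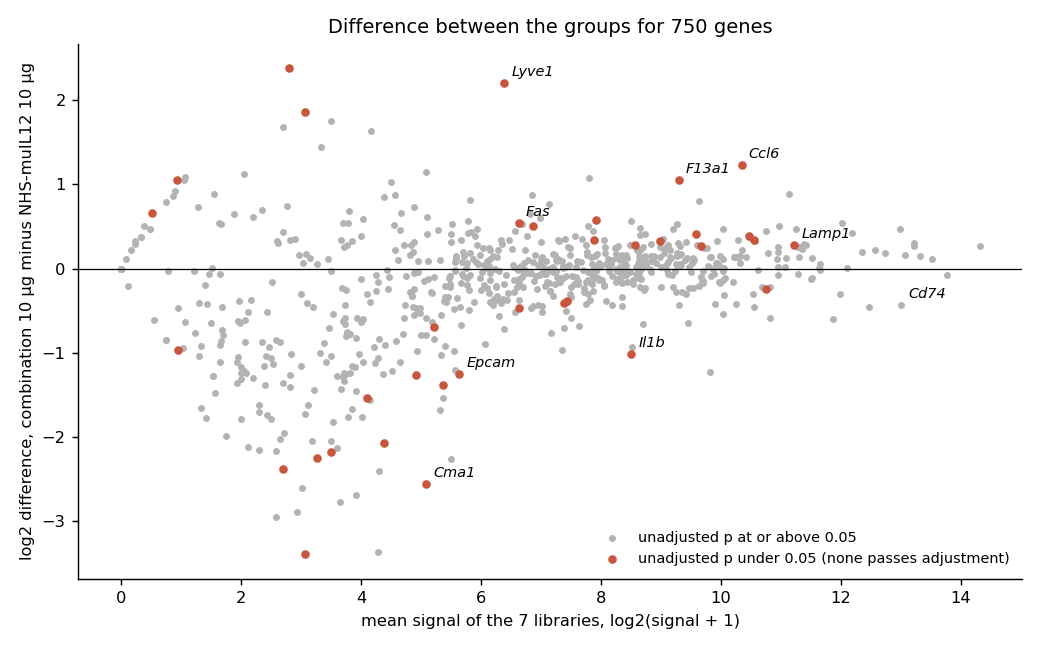
Each point is 1 of 750 genes, placed by its mean signal over the 7 libraries (x, log2(signal + 1)) and by the log2 difference of combination minus NHS-muIL12 alone (y). Red points mark the 35 genes with an unadjusted limma p under 0.05, of which 0 passed adjustment, and the points spread widest at the dim end on the left.

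The combination mice differed from each other more than the mice with NHS-muIL12 alone did. Over the 450 brighter genes the median SD of log2 signal was 0.36 in the combination (n = 4) and 0.21 with NHS-muIL12 alone (n = 3). It was between 0.24 and 0.30 in the 4 other groups of the series. The SD was larger in the combination for 359 of the 450 genes (79.8%), and it was above 1 for 22 genes in the combination and 7 with NHS-muIL12 alone. This difference in spread was not tested.

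Replicate 3 stood at the top of the combination group. It had the highest signal of the 4 combination mice for 269 of the 450 genes and the highest of all 7 mice for 227 (50.4%), while replicate 1 was the lowest combination mouse for 198. Pearson's r between libraries over these genes, which are not independent replicates, was 0.948 to 0.972 among mice with NHS-muIL12 alone, 0.888 to 0.959 within the combination and 0.917 to 0.979 between the groups. A pair of combination mice could thus be less alike than a combination mouse and a mouse with NHS-muIL12 alone. Leaving combination replicate 3 out moved many of the differences below, for several lists in the opposite direction to leaving out NHS-muIL12 alone replicate 3. It also moved the genes as a whole: of all 750, 243 were then higher and 496 lower, with a median of -0.18. List values without this mouse are to be read beside that shift. Where it was the highest combination mouse, leaving it out lowers a gene or list by construction and adds no support for a fall.

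**Figure D2:**
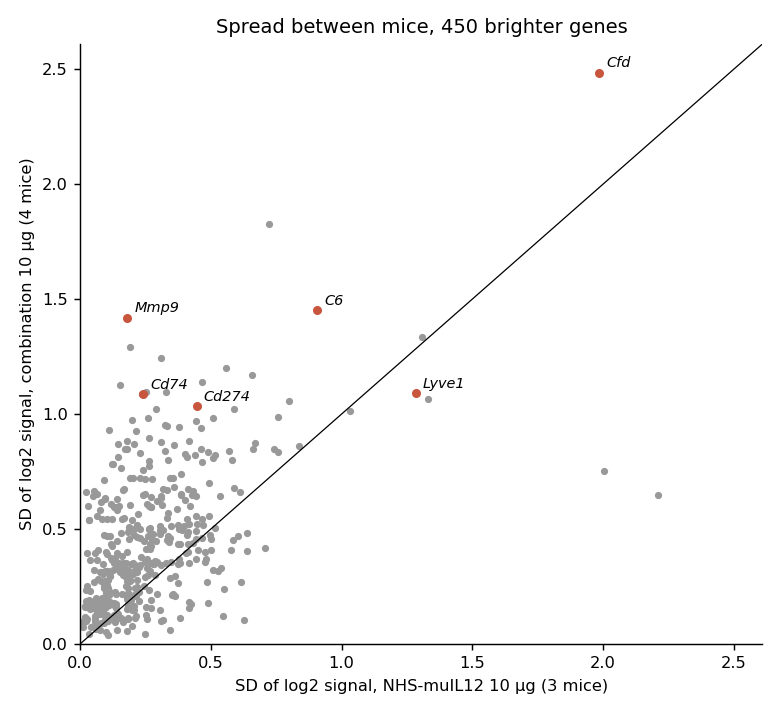
Each point is 1 of the 450 brighter genes, placed by its SD of log2 signal over the 3 mice with NHS-muIL12 alone (x) and over the 4 combination mice (y). The line marks equal SD, and 359 points lie above it, among them Cd74, Cd274 and Mmp9.

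Genes of MHC class II antigen presentation, which load and display peptides to CD4+ T cells, were lower on average in the combination without passing the test. Of the 9 measured members of the class II list, 0 passed in either direction, and 9 had a negative difference with a median of -0.48, against -0.05 over all genes. Without combination replicate 3 the median was -0.98, against -0.18 over all genes. Promoters of class II genes carry a shared set of short elements, among them a CCAAT element called the Y box, which the factor NF-Y binds. H2-Aa and H2-Eb1 (class II chains) and the interferon-induced chemokines Cxcl9 and Cxcl10 were among the genes that followed one another from mouse to mouse. Their promoters are shown as examples. They are the 150 bases before the RefSeq start (GRCm38.p6), 5′ to 3′ on the gene's strand, H2-Aa at chr17:34287824-34287973 (minus strand), H2-Eb1 at chr17:34305717-34305866 (plus), Cxcl9 at chr5:92328080-92328229 (minus) and Cxcl10 at chr5:92348890-92349039 (minus). Capitals mark the letters CTGATTGG, read as CCAATCAG where the match is on the other strand.
H2-Aa: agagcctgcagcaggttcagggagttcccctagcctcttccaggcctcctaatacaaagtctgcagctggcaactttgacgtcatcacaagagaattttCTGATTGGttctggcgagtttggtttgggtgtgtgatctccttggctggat
H2-Eb1: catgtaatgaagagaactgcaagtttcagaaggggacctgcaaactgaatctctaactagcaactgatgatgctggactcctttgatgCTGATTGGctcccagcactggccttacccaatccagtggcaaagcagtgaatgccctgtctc
Cxcl9: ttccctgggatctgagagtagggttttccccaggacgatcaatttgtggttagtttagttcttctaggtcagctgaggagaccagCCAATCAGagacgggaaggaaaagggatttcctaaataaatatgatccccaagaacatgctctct
Cxcl10: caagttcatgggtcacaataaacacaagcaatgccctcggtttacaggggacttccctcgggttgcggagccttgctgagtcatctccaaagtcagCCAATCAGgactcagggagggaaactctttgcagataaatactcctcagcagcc

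The marked letters began 51 bases before the start in H2-Aa, 62 in H2-Eb1, 65 in Cxcl9 and 54 in Cxcl10. On either strand they are found in 1258 of 32851 promoter windows of 250 bases (3.83%), and in 29 of 549 tested genes with a promoter entry (5.28%). The letters TTCNNNGAA (N is any base), called the gamma-activated site, were also searched for and had 0 matches in each of the 4 promoters shown. They are found in 2306 of the 32851 windows of 250 bases (7.02%), which are longer than the 150 bases shown. A match describes the letters and is no evidence of binding in these tumours. Other genes with the same order of mice, among them Cd74 and Ciita, are not shown, so the 4 promoters give no share for such genes. The part of the marked letters in that order was not tested.

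Cd74, the invariant chain that guides class II molecules, had signals of 7097, 8934 and 9812 in the mice with NHS-muIL12 alone and of 6123, 2861, 17463 and 5204 in combination replicates 1 to 4. Combination replicates 1, 2 and 4 lay below every mouse with NHS-muIL12 alone and replicate 3 lay above them all. The difference was -0.43 ± 0.54 (95% interval -1.57 to 0.71). H2-Aa repeated this order, with 5025, 5821 and 7119.5 against 4140.3, 2186, 12583 and 3022, and a difference of -0.46 ± 0.60. H2-Eb1, a class II beta chain, was at 1648, 1910.4 and 2142 against 1260.3, 534, 4321 and 853. Ciita, the coactivator that switches class II genes on, was at 44.9, 47.5 and 66.8 against 21.5, 12.8, 113 and 14.1. In each of these genes the same 3 mice were below and the same mouse above, and no combination mouse lay within the range of the other group. H2-Dma, which helps load peptides and is spelled differently in the list, was at a difference of -0.65 ± 0.38. Without replicate 3 the difference was -0.92 for Cd74 and -0.98 for H2-Aa, and over all genes no adjusted p in limma was below 0.550.

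The median of the interferon-gamma target genes was also below 0, in part through the same genes. Their list holds Cd74, H2-Aa and Ciita of the class II list and Cxcl9, Cxcl10 and Cxcl11 of the lymphocyte chemokine list. Of 19 measured members of the interferon-gamma response list, 0 passed, 5 were higher and 14 lower on average, with a median of -0.30. Without combination replicate 3, 19 of 19 were lower and the median was -0.62, against 496 lower of all 750 genes and a median of -0.18. That mouse had the highest mean log2 signal of this list in its group, so its omission lowers the list by construction. Without NHS-muIL12 alone replicate 3 the median of the list was -0.13, against 0.04 over all genes. Gbp5, an interferon-induced GTPase, was at 437, 771 and 831 against 493, 323, 1266 and 278, a difference of -0.43 ± 0.44, which was -0.89 without combination replicate 3 and -0.25 without NHS-muIL12 alone replicate 3. These ranges overlapped, with combination replicate 3 the highest of the 7 mice.

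Chemokines that attract lymphocytes were lower in 3 of the 4 combination mice. Cxcl9 was at 975, 1434 and 1069 with NHS-muIL12 alone and at 831, 492, 2086 and 442 in the combination, a difference of -0.54 ± 0.57 (95% interval -1.74 to 0.66). Cxcl10, which binds the same receptor CXCR3, was at 638, 999.6 and 814 against 534, 304, 1283 and 332, a difference of -0.65 ± 0.39. Again 3 mice were below the other group and replicate 3 was above. Without replicate 3 the difference was -1.01 for Cxcl9 and -1.09 for Cxcl10. Ccl5, a chemokine of T cells and monocytes, was at 163, 199 and 275 against 116, 62.4, 258 and 66.0, a difference of -0.97 ± 0.53. Of the 16 genes of the lymphocyte chemokine list, 0 passed, 4 were higher and 12 lower on average, with a median of -0.43, which was -0.85 without combination replicate 3 and -0.26 without NHS-muIL12 alone replicate 3. Not all members followed: Ccl3, a chemokine made by macrophages and picked after its values were seen, was at 138, 117 and 136 against 91.3, 169.8, 241 and 193.

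**Figure D3:**
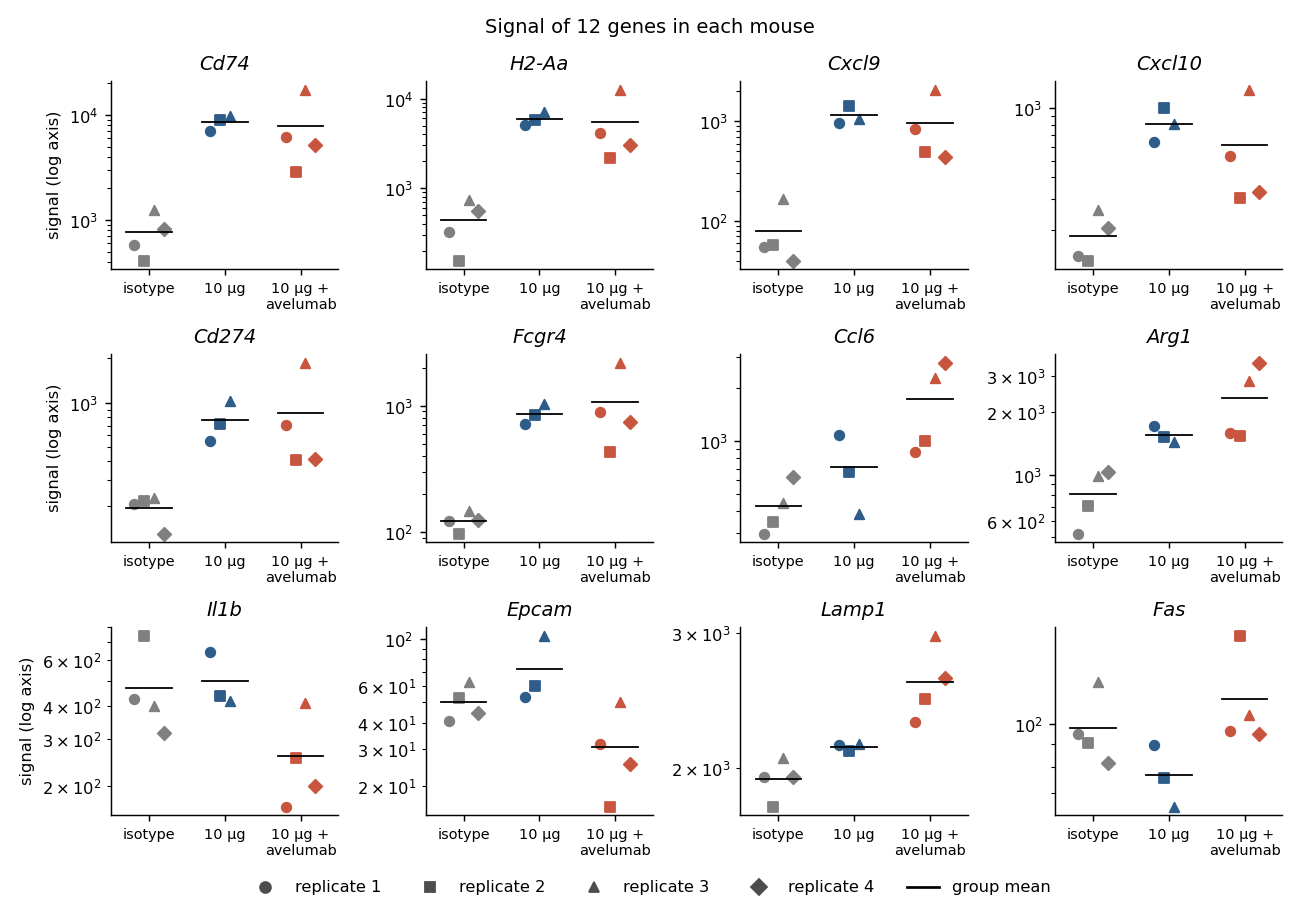
Signal of 12 genes in each mouse (y, log axis) for isotype control, NHS-muIL12 10 µg and the combination, with symbols for replicate number and a line at the group mean. Combination replicate 3 (triangle) lies above the other combination mice for Cd74, H2-Aa, Cxcl9, Cxcl10, Cd274 and Fcgr4, and all combination mice lie above NHS-muIL12 alone for Lamp1 and Fas and below it for Il1b and Epcam.

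The target of avelumab was present in both groups. Cd274 (PD-L1) had signals of 553, 713 and 1022 with NHS-muIL12 alone and of 707, 407, 1876 and 412 in the combination. The ranges overlapped, and the difference was -0.10 ± 0.51 (95% interval -1.18 to 0.97). Without NHS-muIL12 alone replicate 3 it was 0.13 and without combination replicate 3 it was -0.59. Pdcd1, which encodes PD-1, was at 30.4, 6.30 and 38.3 against 2.27, 12.8, 44.1 and 6.51, and Pdcd1lg2, the second PD-1 ligand, at 38.7, 39.3 and 81.9 against 30.6, 15.99, 70.0 and 13.1. Both were dim and their groups overlapped. Tnfrsf14, the binding partner of the checkpoint molecule BTLA, was at 249, 237 and 253 against 156, 140.3, 370.2 and 160.3, again with replicate 3 alone above the other group. Of 13 inhibitory checkpoint genes 0 passed, 2 were higher and 11 lower on average, with a median of -0.37, and -0.69 without combination replicate 3. Only 3 of the 13 averaged 50 or more over the 22 libraries, with a median of -0.10. The 300 dimmer genes as a whole had a median of -0.45.

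Genes of the interleukin-12 pathway itself were mostly dim. Il12rb1, a chain of the interleukin-12 receptor, was at 78.1, 87.1 and 124 against 101, 70.8, 142 and 74.4, a difference of -0.02 ± 0.38. Il12rb2, the signalling chain, did not exceed 4.65 with NHS-muIL12 alone and reached 13.8 in combination replicate 3. Ifng was at 2.39, 13.7 and 45.0 against 7.32, 0, 24.5 and 4.62, and its interval ran from -4.41 to 2.08, so no difference was detectable at this signal. Il18, a cytokine that acts with interleukin-12, was brighter, at 211, 239.8 and 162 against 134, 127, 218 and 174, a difference of -0.34 ± 0.19. Of the 13 genes of the interleukin-12 and interleukin-18 list 0 passed, 5 were higher and 8 lower on average, with a median of -0.10. It was -0.32 without combination replicate 3 and -0.01 without NHS-muIL12 alone replicate 3.

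No T cell, NK cell or cytotoxic gene passed the test. Of 19 T cell genes 0 passed, 8 were higher and 11 lower on average, and the median of -0.05 was 0.19 without NHS-muIL12 alone replicate 3 and -0.56 without combination replicate 3. Of 19 NK cell genes 3 were higher and 14 lower on average, with a median of -0.33, which was -0.04 without NHS-muIL12 alone replicate 3 and -0.54 without combination replicate 3. Of 7 cytotoxic effector genes 2 were higher and 5 lower, with a median of -0.22, and the same omissions gave -0.01 and -0.51. Klra6 was below and Klra21 above the other group in every combination mouse, both NK cell receptor genes picked after their values were seen, at mean signals of 10.1 and 0.900. Fasl, the ligand of the death receptor Fas, also picked that way, was the 1 cytotoxic gene of 7 with an unadjusted limma p under 0.05, against 35 of all 750 genes (4.67%). Fasl was at 5.504, 7.12 and 16.5 against 0, 0.184, 9.29 and 0. Its log2(signal + 1) difference thus rests on signals at or near the floor. Cd8a, the coreceptor of cytotoxic T cells, was at 3.43, 0 and 36.6 against 0.245, 5.45, 51.3 and 10.3. Cd4, the coreceptor of helper T cells, was at 3.43, 9.60 and 36.6 against 0, 3.34, 27.2 and 4.62. In both genes the highest mouse of each group was replicate 3, the library with the highest lower quartile of its group. Gzma, a granzyme of cytotoxic lymphocytes, was at 76.0, 63.2 and 61.8 against 45.8, 143, 79.0 and 71.6, and Prf1, the pore-forming protein perforin, at 55.3, 31.0 and 55.0 against 26.5, 45.5, 64.7 and 29.2. Klrd1, the CD94 receptor of NK cells, spanned 38.7, 59.2, 189 and 22.5 in the combination around 61.5, 56.6 and 102 with NHS-muIL12 alone. Summed signal of Cd3d, Cd3e and Cd3g was 88.2 to 204 with NHS-muIL12 alone and 68.6 to 307 in the combination. For Ncr1 and Klrb1c, which mark NK cells, it was 26.6 to 59.8 and 27.2 to 36.9, with Klrb1c at 0 in a library.

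Macrophage genes had higher means in the combination without passing the test. Of 16 measured macrophage genes 0 passed, 15 were higher and 1 lower on average, with a median of 0.29. Without combination replicate 3 the median was 0.07, with 9 higher and 7 lower. Ccl6, a myeloid chemokine of mice, was at 1084, 668 and 387 with NHS-muIL12 alone and at 864, 1005, 2296 and 2801 in the combination. Only combination replicates 3 and 4 exceeded all mice of the other group. The difference of 1.23 ± 0.47 (95% interval 0.23 to 2.23, 2.35-fold) had an adjusted p of 0.932 in limma.

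F13a1, a coagulation factor subunit made by macrophages, and Lyve1, a hyaluronan receptor of lymphatic vessels and of some tissue macrophages, followed Ccl6. F13a1 was at 635, 286 and 236 against 323, 741, 943 and 1234, a difference of 1.05 ± 0.47. Lyve1 was at 58.4, 15.4 and 9.78 against 42.7, 73.9, 121 and 258, a difference of 2.21 ± 0.85 (95% interval 0.42 to 3.99). In both, NHS-muIL12 alone replicate 1 overlapped the combination, and combination replicate 4 was the highest mouse. Both were among the 35 genes with an unadjusted limma p under 0.05, as was Ccl6. Without NHS-muIL12 alone replicate 3 the differences were 0.85 for Ccl6, 0.77 for F13a1 and 1.69 for Lyve1, and none of the 3 remained under that threshold. Mrc1, the mannose receptor, and Cd163, a haemoglobin scavenger receptor, both macrophage markers, showed the same order. Mrc1 was at 962, 377 and 332 against 377, 822, 1317 and 1356, and Cd163 at 218, 45.9 and 43.3 against 34.6, 128, 245 and 260.3. In these genes the mice with NHS-muIL12 alone were themselves split, with replicate 1 high.

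Arg1, which breaks down arginine in myeloid cells, was at 1716, 1509 and 1441 against 1579, 1527, 2822 and 3466, a difference of 0.51 ± 0.31. Nos2, the inducible nitric oxide synthase, was at 67.7, 45.1 and 102 against 61.9, 63.4, 199 and 70.7. For Arg1 combination replicates 3 and 4 were both above the other group, and for Nos2 replicate 3 alone was. Of the 5 Fc receptor genes 5 were higher on average and 0 passed, with a median of 0.22, which was -0.03 without replicate 3. Fcgr4, an activating Fc receptor, was at 715, 841 and 1026 against 898, 427, 2197 and 742. Fcgr2b, the inhibitory Fc receptor, was at 2423, 1823 and 1696 against 2049, 2214, 3863 and 3052. Of the 5 genes of monocyte attraction 3 were higher on average, with Ccl2, a ligand of CCR2, at 1587, 1423 and 889.9 against 1196, 1248, 2767 and 1538, and Ccl8 at 4531, 2160.4 and 2319.9 against 2316, 2492, 10665 and 4621. Beside these results, the summed signal of Csf1r and Cd68, which mark macrophages, was 1111 to 1389 with NHS-muIL12 alone and 1216 to 2463 in the combination, and its part in them was not tested.

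**Figure D4:**
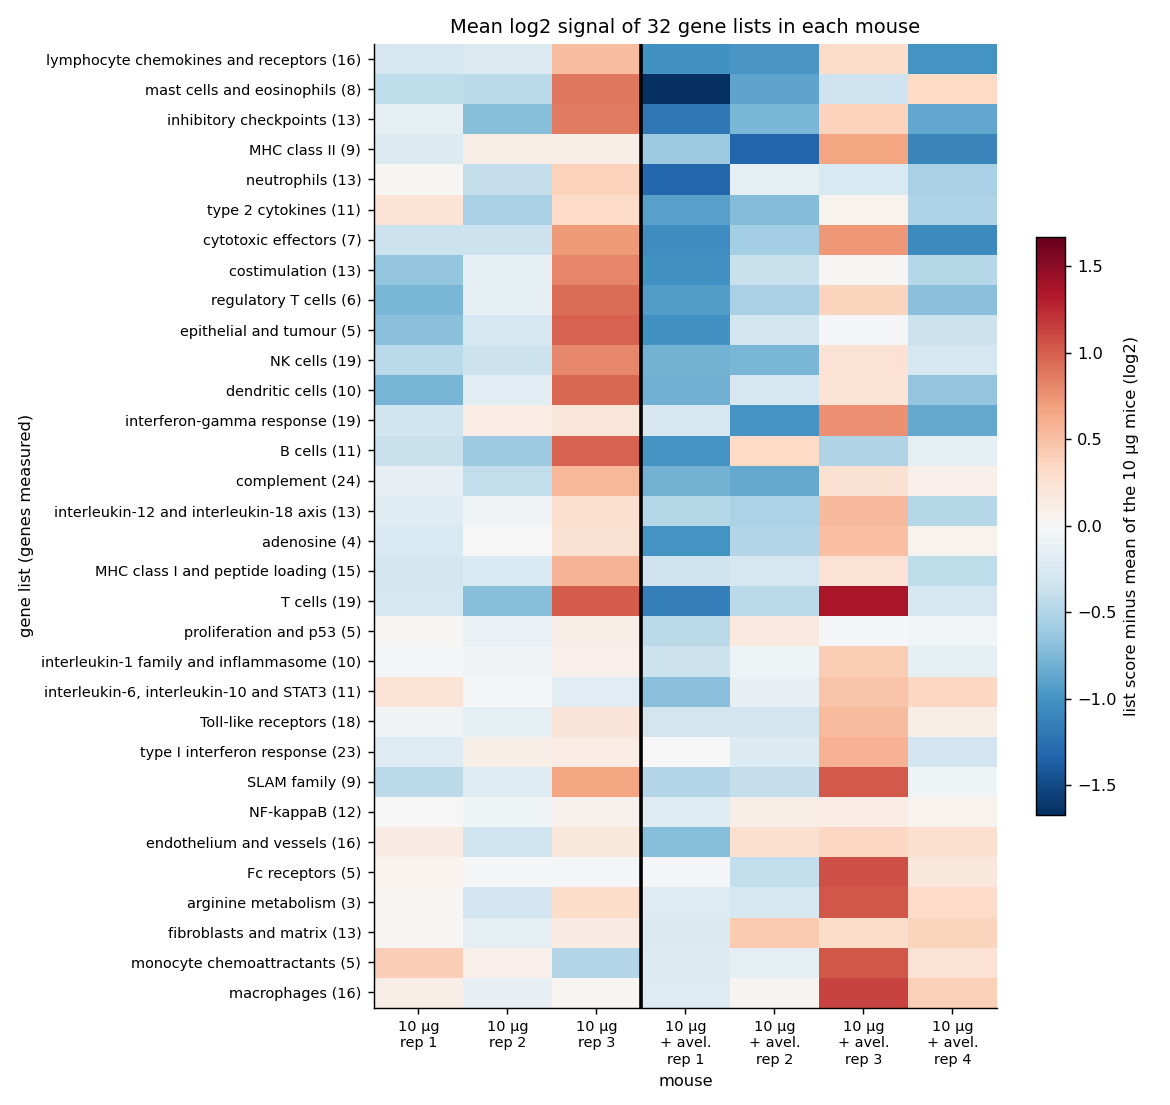
Mean log2(signal + 1) of each of 32 gene lists in each of the 7 mice, with the number of measured genes in brackets and a line between the groups. Colour shows the difference from the mean of the 3 mice with NHS-muIL12 alone (log2 units). Rows are ordered by the group difference. Combination replicate 3 is above that mean for the macrophage, Fc receptor, class II and interferon-gamma lists, while replicates 2 and 4 are below it for the last 2.

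Several genes of inflammatory and mast cells were lower in the combination before adjustment. Il1b, the gene of interleukin-1 beta, was at 642, 439 and 421 with NHS-muIL12 alone and at 166, 254, 413 and 199 in the combination, so the groups did not overlap. The difference was -1.01 ± 0.44 (95% interval -1.94 to -0.09, adjusted p = 0.932 in limma). Il1b differed from the interferon genes in that replicate 3 did not exceed the mice with NHS-muIL12 alone. Of 13 neutrophil genes 0 passed, 2 were higher and 11 lower on average, with a median of -0.43. Cxcr2, the chemokine receptor of neutrophils, was at 91.6, 43.4 and 70.1 against 13.4, 28.6, 35.2 and 43.3, a difference of -1.21 ± 0.61. Mmp9, a gelatinase of neutrophils and other myeloid cells, was at 211, 170.5 and 169 against 87.2, 644, 75.4 and 122, with replicate 2 high among lower mice. The summed signal of S100a8 and Csf3r, which mark neutrophils, was 1056 to 1584 with NHS-muIL12 alone and 622 to 1191 in the combination, and its part in these values was not tested.

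Cma1, a mast cell chymase, was at 68.7, 40.9 and 53.4 against 1.26, 2.29, 43.2 and 20.7, a difference of -2.56 ± 1.04. Replicate 3 alone overlapped the other group. Tpsab1, a mast cell tryptase named because it passed the test at the 2 µg dose, was at 8.61, 24.4 and 50.02 against 6.31, 4.40, 7.50 and 11.2, a difference of -1.54 ± 0.62, and -0.97 without NHS-muIL12 alone replicate 3. Of the 8 measured genes of the mast cell and eosinophil list 0 passed, 3 were higher and 5 lower on average, with a median of -0.43, and -0.12 without NHS-muIL12 alone replicate 3.

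Ccr7 and Xcl1, genes of dendritic cell traffic, were also lower in every combination mouse than in the other group. Ccr7, the receptor that brings dendritic cells and naive T cells to lymph nodes, was at 33.5, 31.9 and 68.5 against 15.4, 9.67, 20.01 and 26.3, a difference of -1.27 ± 0.56. Xcl1, a chemokine of T and NK cells that attracts cross-presenting dendritic cells, was at 73.9, 44.2 and 66.8 against 19.5, 37.1, 28.9 and 12.2, a difference of -1.38 ± 0.65. Of 10 dendritic cell genes 9 were lower on average and 0 passed. Their median of -0.46 was 0.10 without NHS-muIL12 alone replicate 3, so the direction of the list turned on that mouse. Batf, a transcription factor of T cells and dendritic cells, was at 40.8, 42.6 and 53.4 against 19.5, 22.3, 41.5 and 31.98, with replicate 3 again the highest of the combination.

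By its median, the epithelial list was the furthest below 0 of the 32 lists. By mean log2 signal it was not: it differed by -0.42 and the lymphocyte chemokine list by -0.67. Only 1 of its 5 measured members averaged 50 or more over the 22 libraries, Muc1, at -0.26. The 300 dimmer genes as a whole had a median of -0.45, and of 0.00 without NHS-muIL12 alone replicate 3. Epcam, an adhesion molecule of epithelial and carcinoma cells, was at 53.2, 59.9 and 104 with NHS-muIL12 alone and at 31.6, 15.99, 50.4 and 25.4 in the combination, and the groups did not overlap. The difference was -1.25 ± 0.44 (95% interval -2.18 to -0.32, adjusted p = 0.932 in limma). Cdh1, the adhesion molecule E-cadherin, was at 38.7, 33.5 and 102 against 19.5, 28.6, 30.7 and 21.6, also without overlap, a difference of -1.02 ± 0.59, and -0.53 without NHS-muIL12 alone replicate 3. NHS-muIL12 alone replicate 3 was the highest mouse for both genes. Without it the difference for Epcam was -0.97, with an unadjusted p of 0.068 in limma. Of the 5 measured members of the list 0 passed, 1 was higher and 4 lower on average, and their median of -1.02 was -0.53 without NHS-muIL12 alone replicate 3. The higher member was Cd44, at 0.320, 1.35 and 19.8 against 14.4, 13.9, 11.1 and 11.2. Summed over Epcam, Cdh1, Muc1 and Cd44, signal was 153 to 302 with NHS-muIL12 alone and 109 to 163 in the combination, and none of the 4 was at 0 in any of the 7 libraries. The leukocyte gene Ptprc, which encodes CD45, was at 420 to 457 against 258 to 717. The part of cell composition in these values was not tested.

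Stromal genes overlapped between the groups. Col3a1, a fibrillar collagen chain, was at 7117, 5223 and 6903 against 4824, 8549, 10383 and 14055. Fap, a protease of activated fibroblasts, was at 31.4, 21.97 and 6.43 against 18.4, 33.9, 53.1 and 64.1, a difference of 1.15 ± 0.58, which was 0.53 without NHS-muIL12 alone replicate 3. For both genes combination replicate 4 was highest and replicate 1 was the lowest combination mouse. Of 13 fibroblast and matrix genes 0 passed, 10 were higher and 3 lower on average, with a median of 0.19, and 0.30 without NHS-muIL12 alone replicate 3. Of 16 vessel genes 0 passed, 6 were higher and 10 lower on average, with a median of -0.03, which was 0.06 without NHS-muIL12 alone replicate 3 and -0.12 without combination replicate 3. Summed fibroblast markers (Col1a1, Col3a1 and Thy1) were 9282 to 12609 with NHS-muIL12 alone and 8012 to 22476 in the combination, and their part was not tested.

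Some bright genes had small differences with little spread. Cdkn1a, which encodes the cell cycle inhibitor p21, was at 698, 603 and 620.0 against 658, 822, 1074 and 897, a difference of 0.41 ± 0.14 (95% interval 0.11 to 0.71, 1.33-fold). Fas, a death receptor, was at 89.5, 75.6 and 65.1 against 96.3, 158, 105 and 95.2, a difference of 0.54 ± 0.22. Lamp1, a membrane protein of lysosomes, was at 2139, 2101 and 2149 against 2297, 2461, 2978 and 2618, a difference of 0.27 ± 0.12. All combination mice lay above the other group for Fas and Lamp1, and Cdkn1a overlapped through replicate 1. Map2k1, the kinase MEK1, was at 689, 781 and 700.5 against 836, 906, 888 and 862, and Mapkapk2, a kinase downstream of p38, at 358, 312 and 345 against 364, 415, 448 and 415. For both, too, every combination mouse was the higher. H2-K1, a class I heavy chain that presents peptides to CD8+ T cells, was at 1162, 1035 and 1379 against 1416, 1565, 2131 and 1215, a difference of 0.39 ± 0.17 with overlap, and 0.23 without combination replicate 3. Cxcr4, the receptor of the chemokine CXCL12, differed by 0.51 ± 0.20, Cd84, a receptor of the SLAM family, by 0.57 ± 0.25, and Lamp2, another lysosomal membrane protein, by 0.33 ± 0.15.

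In the other direction, Nfatc3, a calcium-regulated transcription factor, was at 205, 208 and 184 against 155, 135, 147 and 176. The groups did not overlap and the difference was -0.38 ± 0.13 (95% interval -0.65 to -0.11, adjusted p = 0.932 in limma), the smallest unadjusted p of the comparison. Irf3, a transcription factor of the type I interferon pathway, was at 205, 179.5 and 198 against 136, 127, 174 and 149. Prkce, a protein kinase C, was at 112, 108 and 130.5 against 89.2, 85.5, 86.1 and 74.4, and Psma2, a proteasome subunit, at 1832, 1916 and 1918 against 1764, 1539, 1698 and 1397. In these 3 genes, too, all combination mice were the lower. The genes named in this and the preceding paragraph were picked for a small p in this comparison, as were Il1b, Epcam, Ccr7 and Xcl1 above. The lack of overlap in any of these genes is therefore no further support. Over all 750 genes the groups did not overlap for 43 (5.73%). Among the 23 of these whose signal averaged 50 or more over the 7 libraries, 13 were higher and 10 lower in the combination.

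Avelumab was also added to 2 µg of NHS-muIL12 and to none, in mice that do not overlap with each other or with these 7. At 2 µg, 2 of 750 genes (0.267%) passed in limma, Itga6, an integrin chain (-0.79 ± 0.15, adjusted p = 0.0327), and Tpsab1 (-2.82 ± 0.57, adjusted p = 0.0447). At 10 µg Itga6 was at -0.30 ± 0.16, with 297, 215 and 228 against 190.4, 199, 205 and 197. Avelumab without NHS-muIL12 against isotype control gave 0 genes (0%), with 38 (5.07%) at an unadjusted limma p under 0.05, and avelumab at 2 µg gave 83 (11.1%).

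Of the 9 class II genes 8 had a positive avelumab difference at 2 µg, with a median of 0.98, and 0 a positive one at 10 µg, with a median of -0.48. Of the 19 interferon-gamma genes 18 were positive at 2 µg (median 0.66) and 5 at 10 µg (median -0.30), against 366 and 326 of all 750 genes, and 0 members of either list passed at either dose. The avelumab difference for Cxcl9 was 1.65 ± 0.53 at 2 µg and -0.54 ± 0.57 at 10 µg, and for Gbp5 1.50 ± 0.41 and -0.43 ± 0.44. For H2-Aa it was 1.30 ± 0.55 and -0.46 ± 0.60, for Cd74 1.05 ± 0.50 and -0.43 ± 0.54, and for Cxcl10 1.01 ± 0.36 and -0.65 ± 0.39. The doses were compared directly by the interaction, the difference at 10 µg minus that at 2 µg. It was -1.66 ± 0.53 for Cxcl10, -1.92 ± 0.61 for Gbp5 and -2.19 ± 0.78 for Cxcl9. Of 750 genes 0 (0%) passed in limma, where no adjusted p was below 0.993, and 26 genes (3.47%), these 3 among them, had an unadjusted p under 0.05. Without combination 10 µg replicate 3, the mouse with the highest interferon genes, the interaction was -2.10 for Cxcl10. This gene then passed in limma (adjusted p = 0.0407), the 1 gene to do so. That mouse had the highest Cxcl10 of its group, so leaving it out lowers this interaction by construction and adds no support. Elk1, a transcription factor of the MAP kinase pathway, differed the other way, by -2.13 ± 0.52 at 2 µg and 0.54 ± 0.57 at 10 µg, at signals of 7.58 to 17.0 in the 7 mice at 10 µg.

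Against avelumab without NHS-muIL12, the interaction also gave 0 genes (0%), with 16 (2.13%) at an unadjusted limma p under 0.05 and no adjusted p below 0.992. Lyve1 was furthest apart, with an avelumab difference of 2.21 ± 0.85 at 10 µg and -1.67 ± 0.85 without NHS-muIL12, an interaction of 3.88 ± 1.20. F13a1 followed, at 1.05 ± 0.47 and -0.89 ± 0.47, an interaction of 1.94 ± 0.67. Both are genes of the macrophage pattern described above. Aire, a regulator of self-antigen expression, differed by -2.89 ± 0.95, at signals under 8 in all 7 mice.

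Other genes kept 1 direction at the 3 doses of NHS-muIL12. The avelumab difference of Il1b at 0, 2 and 10 µg was -0.54 ± 0.44, -0.84 ± 0.41 and -1.01 ± 0.44, and that of Cma1 -1.02 ± 1.04, -3.20 ± 0.96 and -2.56 ± 1.04. Xcl1 was at -2.31 ± 0.65, -0.59 ± 0.60 and -1.38 ± 0.65. Cdkn1a was at 0.29 ± 0.14, 0.30 ± 0.13 and 0.41 ± 0.14 and Lamp1 at 0.20 ± 0.12, 0.24 ± 0.11 and 0.27 ± 0.12. None of these passed adjustment at any dose. Of the 35 genes with an unadjusted limma p under 0.05 at 10 µg, 29 (82.9%) had the same sign at 2 µg and 28 (80%) without NHS-muIL12, against 473 (63.1%) and 481 (64.1%) of all 750 genes. Among the 450 brighter genes the same sign was shared by 270 (60%) in each case, and by 17 and 15 of the 19 of them under that threshold. Pearson's r with the 10 µg differences was 0.48 for 2 µg and 0.43 for no NHS-muIL12 over all 750 genes, and 0.18 and 0.15 over the 450 brighter ones. Genes share their libraries and are not independent replicates. The libraries with a lower quartile of signal above 30 all came from mice without avelumab. They were isotype replicates 1 (39.1) and 2 (43.0), NHS-muIL12 2 µg replicate 3 (51.5) and NHS-muIL12 10 µg replicate 3 (33.3). No library with avelumab was above 20.9. Dim genes, Cma1, Xcl1, Tpsab1 and Epcam possibly among them, can thus read lower with avelumab at each dose, and the part of this in the shared signs was not tested. Without NHS-muIL12 10 µg replicate 3 the differences at 10 µg were -2.56 for Cma1 and -1.31 for Xcl1, against -2.56 and -1.38 with it. For Tpsab1 and Epcam they were both -0.97, against -1.54 and -1.25 with it.

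**Figure D5:**
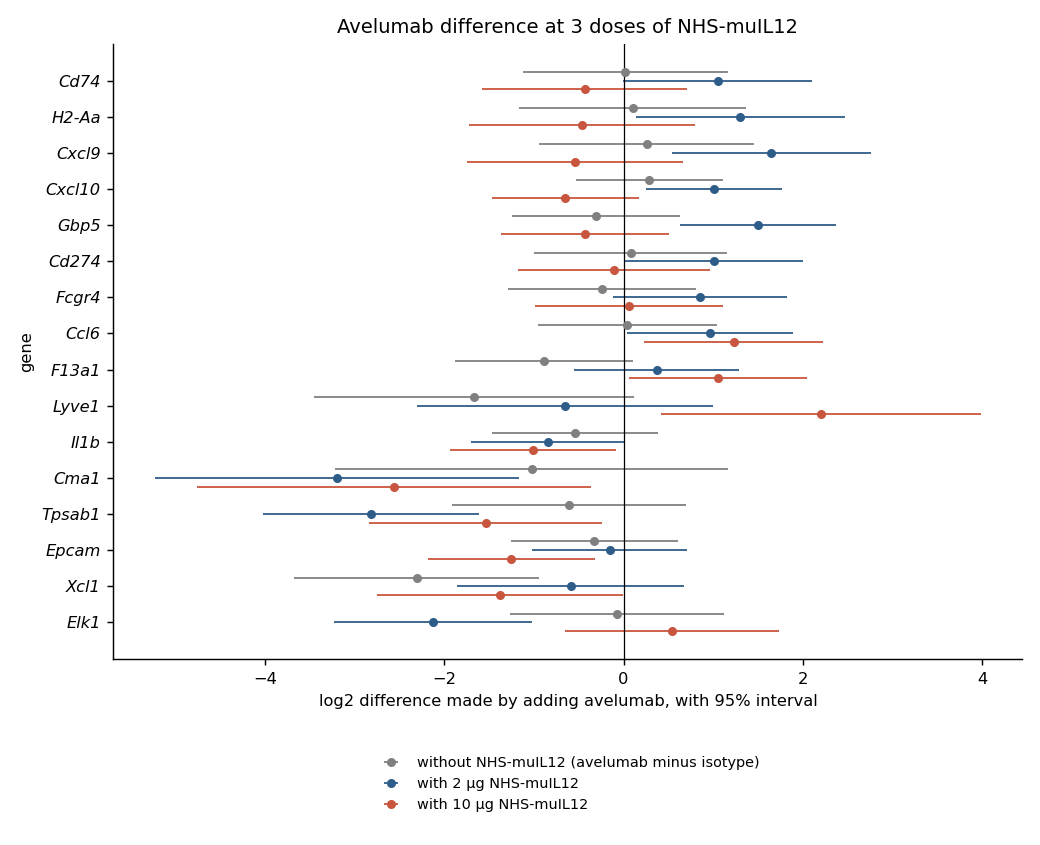
Log2 difference made by adding avelumab (x, with 95% intervals from limma) for 16 genes without NHS-muIL12, with 2 µg and with 10 µg. The class II and interferon genes plotted lie right of 0 at 2 µg and left of it at 10 µg, except Fcgr4, while Il1b, Cma1, Tpsab1, Epcam and Xcl1 lie left of 0 at each dose.

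Both groups were finally set against the same isotype control mice, which makes these comparisons dependent on each other. NHS-muIL12 alone differed from isotype in 79 genes (10.5%) and the combination in 148 (19.7%) at an adjusted p under 0.05 in limma. At an unadjusted limma p under 0.05 the shares were 22.7% and 34.3%. Of the genes past adjustment, 72 genes passed in both, 7 with NHS-muIL12 alone and not in the combination, and 76 in the combination and not with NHS-muIL12 alone. Of the 76, 8 had an unadjusted limma p under 0.05 in the direct comparison, Ccl6, Cd84, Cdkn1a, Lamp1, Lamp2, Mapkapk2, Cma1 and Tpsab1, against 35 of all 750 genes (4.67%), and none passed it after adjustment. The 76 were picked through the same combination mice that enter the direct comparison, so the count is a description. Ccl6 was at 430 ± 145 (SD, n = 4) in isotype mice, 713 ± 351 (SD, n = 3) with NHS-muIL12 alone and 1741 ± 956 (SD, n = 4) in the combination. Cdkn1a was at 532 ± 31.6 (SD, n = 4), 640 ± 50.8 (SD, n = 3) and 863 ± 173 (SD, n = 4). For both genes the 3 means stood in the same order, with NHS-muIL12 alone between the others. Cd74 passed against isotype in both groups (adjusted p = 0.000791 and 0.000879 in limma). It was at 762 ± 363 (SD, n = 4) in isotype mice, 8614 ± 1386 (SD, n = 3) with NHS-muIL12 alone and 7913 ± 6513 (SD, n = 4) in the combination. Il1b was at 472 ± 187 (SD, n = 4), 501 ± 123 (SD, n = 3) and 258 ± 109.5 (SD, n = 4), so that NHS-muIL12 alone lay near isotype and the combination below both means.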

How the data were processed

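Signal values of 770 genes in 22 libraries are on a linear scale and were deposited by the authors, per the labels from NanoString probes. The sources used here do not name the software, the background method or the scaling. Positive values of a library were multiples of 1 step (100% of them, tolerance 0.02 of a step), equal to 0.825 to 1.68 signal per count in the 7 libraries (239947 to 572089 counts above background), and 9.69% of all values were 0. They were therefore read as counts from which a background had been subtracted, and no count model was fitted. Errors are those between mice.

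Analysis used log2(signal + 1) with a pseudocount of 1, R 4.3.3, limma 3.58.1 (lmFit, contrasts.fit, eBayes; statmod 1.5.0) and 1 mean for each of 6 groups, leaving 16 residual degrees of freedom. Two-sided p-values had Benjamini-Hochberg adjustment over 750 genes (770 less 20 housekeeping genes) and a threshold of 0.05. Folds are antilogs of the differences and understate dim genes, because 1 was added to each value. The labels do not say whether replicates were housed or processed together. Of the names, 754 matched current mouse symbols, 8 matched synonyms and 8 neither. Promoters are from RefSeq (GRCm38.p6).

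The comparison, the 32 gene lists and the named genes were chosen with earlier results of these data known. Named genes were up to 12 in each direction past the threshold, filled by the smallest p at a mean signal of at least 20. To these were added 3 members of each list with the largest difference, a fixed set of interleukin-12, checkpoint and effector genes, and the 3 smallest p of each interaction. Genes named outside this rule, which were chosen after their values were seen, were Tpsab1, Itga6, Ccl3, Klra6, Klra21, Fasl, Cd44, H2-Dma, H2-Eb1 and Cxcl11. List members overlap between lists. Some genes of the lists are not reported here.

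Replicate numbers were not used to pair the mice in the main fit. The correlation of deviations from the group means was -0.57, -0.15 and -0.04 for mice of the same number, 1 to 3. Between mice of different numbers it ran from -0.37 to 0.64. So few mice cannot show whether the numbers pair them. On data simulated for this comparison over 750 genes, the fit recovered 70.1% of brighter and 9.59% of dimmer genes changed by 1 log2 unit, and 94.5% and 24.2% at 2 log2 units, with 3 and 5 unchanged genes called. In the simulation 200 genes were changed, and noise was drawn independently for each gene with 1 SD shared by the 6 groups. The combination mice varied more than the other groups, and fewer changed genes would lower the recovery, so these shares may be too high for the real comparison.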

Additional observations from a re-analysis of the deposited data

Results flagged for a closer look

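Among 120 named genes and 32 list scores in the 4 combination mice, 10 of 152 (6.58%) had 1 mouse far from the other 3 by Dixon's criterion, which chance meets in about 1 of 20. Replicate 3 was the mouse in 6 and replicate 1 in 4. Icos, a T cell costimulator, was at 49.5 in replicate 3 against 15.4 to 18.8 in the others, Tbx21, the transcription factor T-bet, at 28.1 (28.05 before rounding) against 12.4 to 14.1, Tnfrsf14 at 370.2 against 140.3 to 160.3, and Nos2 at 198.7 against 61.9 to 70.7. The score of a list is the mean log2(signal + 1) of its genes. Replicate 3 stood at 5.738 against 4.66 to 4.72 for the interleukin-12 and interleukin-18 axis and at 7.116 against 5.79 to 5.83 for lymphocyte chemokines.

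Replicate 1 was low for Tek, the angiopoietin receptor of endothelium (3.279 against 23.4 to 31.6), for Icosl, the ligand of ICOS (24.52 against 42.3 to 45.9), for Relb, an NF-kappaB subunit (194.4 against 273.7 to 292), and for the endothelium list score (5.719 against 6.69 to 6.77).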

How the results depend on the processing

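The count of 0 genes past the adjusted threshold was the same under all 17 alternatives. These were a pseudocount of 10, only genes averaging 50 or more, centring on the median or on housekeeping genes, quantile normalization, sample weights, a trended robust prior, the replicate block, only the 2 groups in the fit, without libraries whose lower quartile was above 30, and each of the 7 mice left out. The smallest adjusted p in limma was 0.0517 with only the 2 groups, 0.0949 after quantile normalization, 0.260 with sample weights and at least 0.550 otherwise. The 35 genes with an unadjusted p under 0.05 became 22 among genes averaging 50 or more, where 450 genes were tested, and 82 with sample weights. They numbered 23 to 55 with 1 mouse left out: 23 without NHS-muIL12 10 µg replicate 3 and 55 (10 higher, 45 lower) without combination replicate 3. Without combination replicate 1 there were 44 (37 higher, 7 lower), so the balance of directions turned on which combination mouse was left out. With the replicate block there were 31 (17 higher, 14 lower), 0 after adjustment (smallest adjusted p 0.927 in limma), and the block changed no other call. The interaction of 10 µg with 2 µg, 0 genes, became 5 with sample weights (Cxcl9, Cxcl10, Cxcl11, Gbp5 and Tnfrsf14, each lower at 10 µg) and ran from 0 to 1 with a mouse left out. The cause was not tested. The interaction with 0 µg stayed at 0. The median of all genes ran from -0.18 to 0.04 with a mouse left out. Of 120 named genes, 0 passed under any alternative, and 93 kept the sign of their difference in all of them. Dim genes, 300 of 750, limit what can be seen.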

Other observations

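Some complement genes varied widely between mice of both groups. Cfd, the protease factor D of the alternative pathway and a product of fat cells, was at 2497, 886 and 162 with NHS-muIL12 alone and at 196, 32.8, 1783 and 730.3 in the combination. C6, a component of the membrane attack complex, was at 108, 33.5 and 93.6 against 47.8, 50.8, 418 and 126. Of 24 complement genes 0 passed, and 12 were higher and 12 lower on average, which became 6 and 18 without combination replicate 3 (median -0.32). The type I interferon list, 23 genes, also had 0 past the test, with 13 higher and 9 lower and a median of 0.02. Without combination replicate 3 it had 4 higher and 18 lower and a median of -0.14. Of all 750 genes, 243 were higher and 496 lower without that mouse, with a median of -0.18, beside both this list and the complement genes. Within it Ifi44l was at 281, 333 and 335 against 223, 147, 557 and 163, the order seen in the class II genes, and Oasl1 at 135, 142 and 122 against 162, 132, 269 and 138.

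Of 6 regulatory T cell genes 0 passed, and 5 were lower on average with a median of -0.58, which was -0.03 without NHS-muIL12 alone replicate 3. Among them Ikzf2, which encodes the factor Helios, was at 135, 139 and 137 against 143, 125, 124 and 136, a difference of -0.06 ± 0.16. Entpd1, the ectonucleotidase CD39 that starts the breakdown of extracellular ATP towards adenosine, was at 245, 236 and 246 with NHS-muIL12 alone and at 155, 131, 309 and 173 in the combination. Of 18 Toll-like receptor pathway genes 11 were higher and 7 lower on average and 0 passed. Without combination replicate 3 there were 5 higher and 13 lower (median -0.14), against 243 and 496 of all 750 genes (median -0.18). Tlr7, an endosomal sensor of single-stranded RNA, was at 38.7, 39.3 and 70.1 against 51.8, 59.2, 95.1 and 65.0.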
